A study of Melitaea cinxia with 170 samples.

Results

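The 100 gene models described here were selected on measured values: they are those whose mean read count in the thorax was highest in Glanville fritillary butterflies (Melitaea cinxia) from AL (Åland) relative to butterflies from PT (Pikku Tytärsaari). They were taken from 5046 gene models with a mean of at least 5 CPM in AL (CPM, the count scaled to a total of 1000000 counted reads per butterfly), out of 16667 gene models in all. The ranking used the log2 ratio of the AL mean to the PT mean, each raised by 0.5 CPM. The difference between AL and PT is therefore how the list was made, so it is given as a description, with no test. The working label of the list called these transcripts nearly restricted to Åland, and the data go partly against it. Of the 100, 45 averaged under 1 CPM in PT, but 14 averaged 5 CPM or more there, 12 had a read in every PT butterfly, and 0 were without a read in all 45. They are therefore called the AL-high gene models below.

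The butterflies came from separate Baltic islands, and AL gave 25 females and 15 males and PT 28 females and 17 males. Each butterfly either went through a flight treatment or was moved to the same conditions without flying, and it was frozen 1 h or about 20 h later. In AL, 6 controls and 13 flown butterflies were frozen at 1 h, and 6 controls and 15 flown butterflies at 20 h. In PT the numbers were 7 and 16 at 1 h and 7 and 15 at 20 h. Butterflies of the 20 h groups, flown or not, spent the night in individual cages with food. The smallest sets, AL control males at 1 h and at 20 h and PT control males at 20 h, held 2 butterflies each. Age, mating state and rearing are not given in the labels used here.

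The thorax of a butterfly carries the wings and is filled largely by flight muscle, next to fat body, trachea, gut, nerve cord and cuticle. The Glanville fritillary is a standard species for the study of dispersal among habitat patches, and the cost of flight in its thorax is one reason for measuring expression there. Transcripts that differ between island populations can differ in level in every individual, or be strong in some individuals and near absent in others, and population means alone do not separate these patterns. Whole thoraces were extracted, so fewer cells of a type and less RNA per cell cannot be told apart. Markers of flight muscle or other tissues were not checked, because the identifiers could not be paired with gene names (0 matches in the RefSeq gene table), and no function or genome position is given for any gene model.

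Totals per butterfly, summed over a library of 450 nt and a library of 650 nt average insert, ran from 1820059 to 6944328 counts in AL (median 4319854) and from 2173156 to 6229055 in PT (median 3853854). Males in AL had a median total of 4999225 and females 3896542. Where a butterfly had 0 reads of a gene model, a limit of 3 counts allows a level of up to 0.432 to 1.65 CPM in AL and 0.482 to 1.38 CPM in PT, for counting error only. The labels give no date or lane, so processing differences between the populations, if there were any, and population cannot be told apart.

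The 100 ratios ran from 6.08-fold to 62.9-fold, with a median of 10.6-fold. Of the gene models, 18 were over 16-fold and 72 over 8-fold. AL means ran from 5.09 to 267 CPM (median 18.5), and PT means from 0.00443 to 20.7 CPM (median 1.13). The opposite ranking, of the 100 gene models highest in PT relative to AL, gave log2 ratios of 1.54 to 6.30 with a median of 2.28, against 2.60 to 5.98 with a median of 3.40 here. Just inside the list, the last members had means of 37.5 ± 68.1 in AL (SD, n = 40) against 5.72 ± 4.57 CPM in PT (n = 45), and 44.8 ± 56.0 against 6.94 ± 7.17. Just outside it stood 13.2 ± 11.9 against 1.76 ± 1.51, and 27.9 ± 41.6 against 4.26 ± 3.88. Ratios at that edge passed from 6.11-fold and 6.08-fold to 6.05-fold and 5.97-fold, so the list ends where neighbouring gene models were alike.

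Summed over the 100 gene models, AL butterflies held 1632 to 6042 CPM (median 3877) and PT butterflies 173 to 442 CPM (median 286). The sums did not overlap, which the choice of gene models largely fixes. In number rather than level, an AL butterfly had a read of 79 to 98 of the 100 (median 92), and a PT butterfly of 53 to 84 (median 71). These ranges touched, since the PT butterflies with most gene models detected passed the AL butterflies with fewest. All 100 were higher in AL in females and all 100 in males, 99 of them over 2-fold in both. Across the 8 sex by treatment sets, 86 were higher in AL in all 8, and 63 were over 2-fold in all 8. These sets are parts of the values that made the list, so the choice largely fixes these counts too. The same shares were not counted over the gene models the list was drawn from, so nothing is read from them. The heat map of all values shows the contrast as a step at the boundary between populations, with a mottled AL side.

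**Figure D1:**
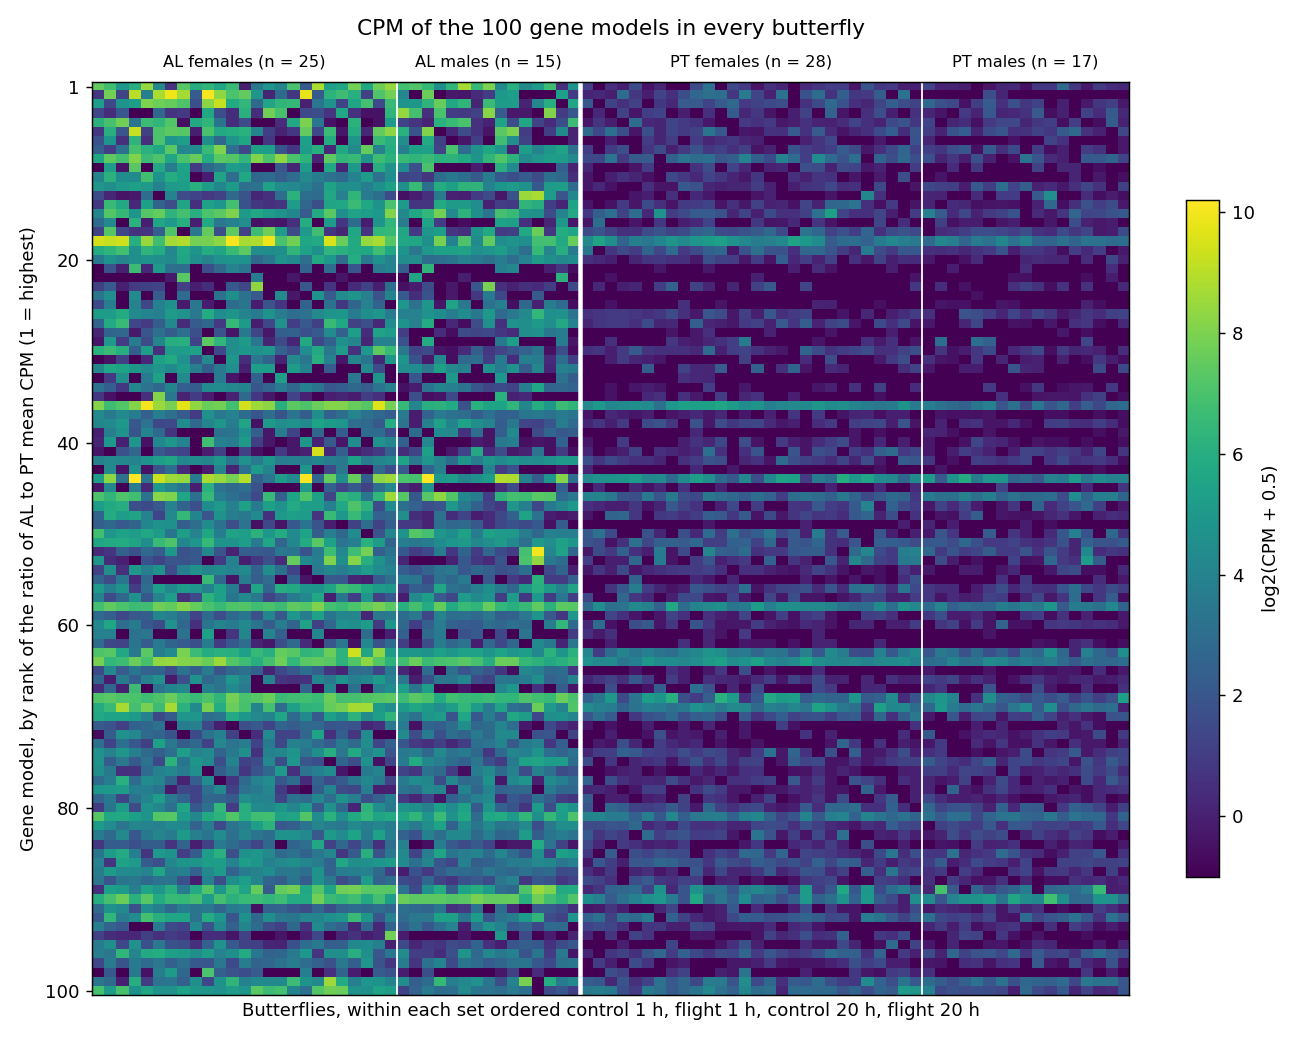
Colour gives log2(CPM + 0.5) of the 100 AL-high gene models (vertical axis, ordered by rank of the AL to PT ratio) in 85 butterflies (horizontal axis, grouped by population and sex). Gene models at the top are not evenly bright across AL: dark cells mark AL butterflies with few or no reads, and some horizontal bands stay visible in PT, where 14 gene models averaged 5 CPM or more.

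A complete separation of the populations was rare. In 5 of the 100 the lowest AL butterfly was above the highest PT butterfly. This was so for 6 of the 5046 gene models at 5 CPM or more (0.119%), and since the list was ranked on the same contrast nothing is read from that. In 70 of the 100 the AL median was above the highest PT value, and in 9 fewer than 10 of the 40 AL butterflies were.

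MCINXTMP_012643 had the lowest, median and highest values of 6.20, 19.1 and 60.8 CPM in AL and of 0, 0.664 and 4.54 CPM in PT. Every AL butterfly stood above every PT butterfly. Means were 20.2 ± 12.2 (SD, n = 40) and 0.832 ± 0.862 CPM (n = 45), a 15.6-fold ratio. MCINXTMP_011220 had 6.60, 20.4 and 84.4 CPM in AL and 0, 0.973 and 3.62 CPM in PT. Again no PT butterfly reached the lowest AL butterfly, and no read was found in 6 PT butterflies, against 9 for MCINXTMP_012643. The ratio of its means, 22.9 ± 15.3 and 1.18 ± 0.915 CPM, was 13.9-fold. Its highest value, 84.4 CPM, came mostly from 1 library, with 311 reads (130 CPM) at 450 nt and 30 reads (18.1 CPM) at 650 nt. Its log2 difference of 650 nt over 450 nt libraries, tested by limma within AL butterflies, was -0.42 ± 0.13 (SE, limma adjusted p = 0.0298). For these gene models the difference was present in females and males alike, as the strip plot of 6 gene models shows.

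The highest ratio belonged to MCINXTMP_006156, at 62.9-fold. Its AL values ran from 0.450 through a median of 67.9 to 447 CPM, and its PT values from 0 through 0.70 to 8.62 CPM. Of the AL butterflies 36 were above the highest PT butterfly, and 1 AL butterfly was at or below the PT median. The means were 106 ± 116 CPM (n = 40) and 1.20 ± 1.61 CPM (n = 45), so the spread within AL was as large as its mean.

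MCINXTMP_010010 came next at 57.6-fold, with a different distribution. Its AL values ran from 0 through 22.8 to 1066.1 CPM, and its PT values from 0 through 0.621 to 11.5 CPM. In AL, 22 butterflies exceeded the highest PT butterfly and 5, all males, had no read. Its AL mean of 153 ± 272 CPM was held to 63.2% by 5 butterflies. By medians in place of means its log2 ratio fell from 5.85 to 4.37, while that of MCINXTMP_006156 went from 5.98 to 5.83.

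The gene models with the largest mean counts in AL were also clearly detected in PT. MCINXTMP_007711 ran from 14.5 through 185 to 1047.0 CPM in AL and from 4.15 through 13.4 to 46.1 CPM in PT, and 34 AL butterflies were above the PT range. MCINXTMP_006003 ran from 4.21 through 79.8 to 1169.5 CPM in AL and from 1.52 through 19.3 to 61.2 CPM in PT. For the latter 20 AL butterflies lay above the PT range and 20 inside it, although the means, 239 ± 320 and 20.7 ± 14.1 CPM, differed 11.3-fold. Gene lengths were not used, so these levels are not compared between gene models.

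The highest single values in PT were those of MCINXTMP_014647 and MCINXTMP_012777. MCINXTMP_014647 ran from 0.911 through 53.6 to 366 CPM in AL and from 0 through 5.79 to 122 CPM in PT. Here 13 AL butterflies exceeded the highest PT butterfly. MCINXTMP_012777 ran from 35.4 through 110 to 244 CPM in AL and from 0.446 through 14.3 to 112 CPM in PT, with 19 AL butterflies above that. The 112 CPM stood far from the next PT butterfly, at 50.4 CPM, and the lowest AL value was below both.

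**Figure D2:**
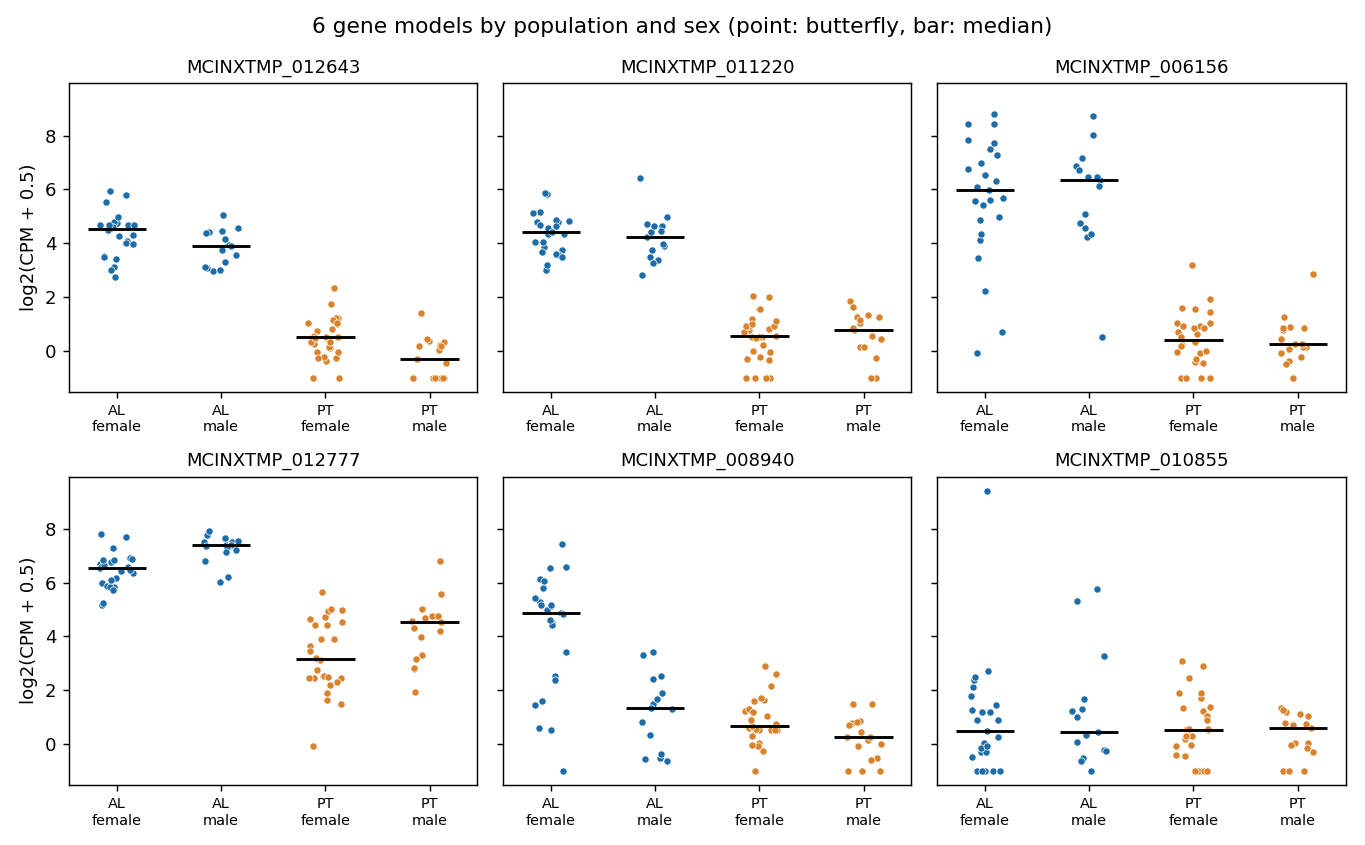
Each panel shows 1 gene model as log2(CPM + 0.5) (vertical axis) in AL females (n = 25), AL males (n = 15), PT females (n = 28) and PT males (n = 17), with points for butterflies and bars for medians. MCINXTMP_012643 and MCINXTMP_011220 separate the populations completely, MCINXTMP_012777 is higher in males and MCINXTMP_008940 in females within AL, and MCINXTMP_010855 owes its AL mean to few butterflies while the medians of both populations are alike.

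Much of the list was uneven within AL. The biological coefficient of variation (BCV, the spread between butterflies beyond counting error, estimated by edgeR within AL) had a median of 0.982 over the 100 gene models, 0.523 over the 5046 gene models they were drawn from and 0.682 over the 8303 tested. The ranking used means, which single high butterflies raise, so these medians describe the list and no more. In 27 of the 100, the 5 highest AL butterflies together held more than all the others, against 131 of the 5046 (2.60%). In 10 of the 100 a single butterfly held over 25% of the AL sum, and in 7 it held more than all other AL butterflies together. Without their highest butterfly, 9 gene models fell under the 5 CPM that admitted them. For 46 of the 100 every AL butterfly had a read, and 14 had no read in 10 or more of the 40.

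The strongest cases, chosen after their values were seen, were MCINXTMP_010855 and MCINXTMP_015599. MCINXTMP_010855 ran from 0 through 0.874 to 686 CPM in AL and from 0 through 0.968 to 7.98 CPM in PT. The AL median was thus below the PT median, and 82.0% of the AL sum came from AL female flight 20 h butterfly 4. Both of its libraries carried the signal, with 819 and 430 reads. Without that butterfly the AL mean of 20.9 ± 108 CPM fell to 3.86 CPM, against 1.35 ± 1.69 CPM in PT. MCINXTMP_015599 ran from 0 through 0.476 to 221 CPM in AL and from 0 through 0.233 to 5.03 CPM in PT. AL female flight 20 h butterfly 10 held 80.7% of its AL sum, with 484 and 429 reads in its libraries. The AL mean without that butterfly was 1.36 CPM, so MCINXTMP_015599 stood below the 5 CPM floor in the other AL butterflies.

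Reads were missing from most AL butterflies for MCINXTMP_001161 and MCINXTMP_010142. MCINXTMP_001161 had no read in 32 AL and in 38 PT butterflies, and its median was 0 in both populations. Its highest values in AL were 162, 73.6 and 46.6 CPM, in 3 butterflies of different sex by treatment sets, whereas PT did not pass 0.502 CPM. MCINXTMP_010142 had no read in 24 AL and in 42 PT butterflies. Its AL values reached 41.3, 39.6 and 31.3 CPM, 15 AL butterflies were above the PT range, and the PT maximum was 0.920 CPM. Values of MCINXTMP_001161 fell from 46.6 to 12 and then to 0.464 CPM, whereas those of MCINXTMP_010142 were graded, with 4.46, 10.3 and 20.1 CPM among them. The plot of evenness sets these patterns beside those of the other members.

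**Figure D3:**
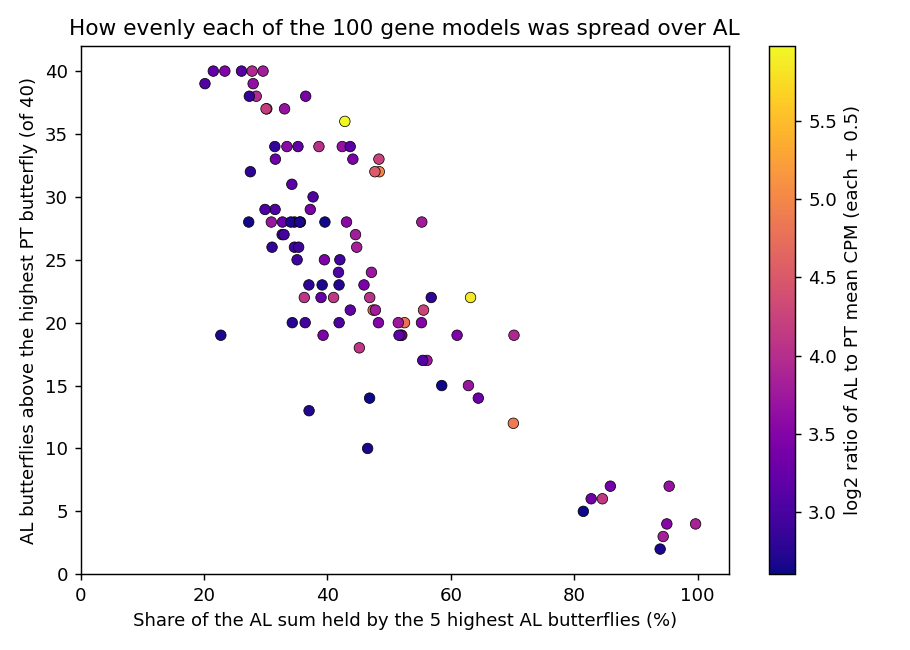
For each of the 100 AL-high gene models the horizontal axis gives the percentage of its AL sum held by its 5 highest AL butterflies, the vertical axis the number of the 40 AL butterflies above the highest PT butterfly, and the colour the log2 ratio of the AL to the PT mean. A group of 9 gene models at the lower right had fewer than 10 AL butterflies above the PT range, and 5 gene models at the top had all 40.

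Uneven gene models were not all uneven in the same butterflies. In all, 31 of the 40 AL butterflies were the highest for at least 1 gene model, and the most led by 1 butterfly was 9, in AL female flight 1 h butterfly 6. Spearman's rank correlation (rho) of CPM over the 40 AL butterflies was used to look for gene models that varied together, as a description. Of the 4950 pairs among the 100, 24 reached a rho of 0.8 (0.485%), against 0.0155% of pairs among all 5046. At a rho of 0.5 or more the order turned, with 2.18% of pairs here and 4.29% of all pairs. The pairs at 0.8 or more joined into 1 chain of 12 gene models, and every other member stood alone. Both values share the butterfly, its libraries and its depth.

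The linked 12 included MCINXTMP_010010 and MCINXTMP_006003, the largest by AL mean. Means in AL and PT were 239 and 20.7 CPM for MCINXTMP_006003, 153 and 2.17 CPM for MCINXTMP_010010, and 76.5 and 2.3 CPM for MCINXTMP_006606. The sum over the 12 therefore follows mainly these gene models in AL, and mainly MCINXTMP_006003 in PT. The summed CPM of the 12 ran from 7.47 through 28.1 to 71.0 in PT. In AL it ran from 6.19 through 150 to 2865.4, and 19 butterflies were at 66.7 CPM or less while 21 were at 139 CPM or more. Of the 19, 18 lay inside the PT range and 1 below it. No AL butterfly lay between. The higher set held 15 of 25 females and 6 of 15 males. By treatment it held 4 of 6 controls and 6 of 13 flown butterflies at 1 h, and 4 of 6 controls and 7 of 15 flown butterflies at 20 h. Both sexes and every treatment were thus present on either side of the gap. Among males the sides lined up with flight, since all 4 control males but 2 of the 11 flown males were in the higher set. Among females they did not, with 4 of 8 controls and 11 of 17 flown butterflies. This split was noticed in the data and was not tested.

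Within AL the 66 pairs of the 12 had a rho of 0.602 to 0.939 with a median of 0.778, the highest being that of MCINXTMP_010010 and MCINXTMP_008630. The rule that linked them sets these values in part. In PT, whose butterflies the linking did not use, the same pairs ran from -0.35 to 0.56 with a median of 0.0369, at levels that were often near 0. MCINXTMP_008630 ran from 0 through 4.04 to 164 CPM in AL, where 9 butterflies, all males, had no read. In PT it ran from 0 through 0 to 11.2 CPM, and 28 butterflies had no read. The libraries of a butterfly gave the same picture, with a rho of 0.967 between the sums from 450 nt and 650 nt libraries over the 40 AL butterflies.

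**Figure D4:**
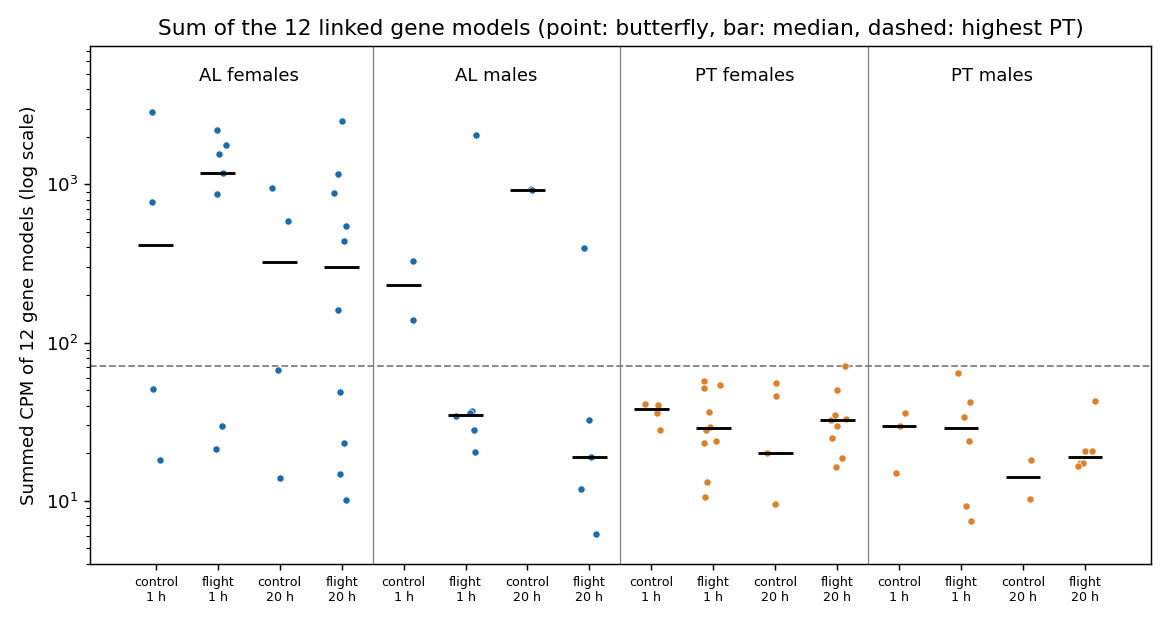
Points are butterflies, the vertical axis is the summed CPM of the 12 linked gene models on a log scale, bars are medians, and columns are treatments within AL females, AL males, PT females and PT males. The 21 AL butterflies above the dashed line, the highest PT sum of 71.0 CPM, were at 139 CPM or more, and of the other 19 AL butterflies 18 were within the PT range and 1 was below it.

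After these values were seen, other gene models were searched for the same pattern. Of the 8303 gene models compared, 19 that are not on the list had a median rho of 0.7 or more with the 12, and 0 of the other 88 members did. Any member with a rho of 0.8 or more with 1 of the 12 had already been joined to them. The 0 is thus set in part by the linking and is not compared with the 19. All 19 were higher in AL, with log2 ratios of 0.90 to 2.93 (median 1.94), and 17 were over 2-fold. Over the 5046 gene models at 5 CPM or more the median log2 ratio was 0.163, and 14.4% were over 2-fold higher in AL. The shares over the 8303, which include lower counts, were not worked out. The 19 were chosen for following, within AL, gene models that were picked as high in AL. Their ratios were not tested and are not read as a result. MCINXTMP_001701, with a rho of 0.80, averaged 17.9 ± 23.5 CPM in AL and 3.25 ± 4.83 CPM in PT. MCINXTMP_006607, with a rho of 0.784, averaged 74.6 ± 89.1 and 25.2 ± 25.8 CPM. Identifiers carry a running number, and MCINXTMP_006607 follows directly on 1 of the 12. In all, 5 of the 19 stood within 10 numbers of a linked gene model, as did 1.24% of the gene models compared. Whether adjacent numbers are adjacent in the genome is not given in the files.

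On the list itself, only MCINXTMP_010701 and MCINXTMP_010702 had consecutive numbers, and 14 of the 100 were within 5 numbers of another member. The share expected among 100 gene models taken at random was not worked out, so these counts are not read as few or many. MCINXTMP_010701 ran from 6.17 through 66.3 to 423 CPM in AL and from 0.506 through 11.0 to 42.6 CPM in PT, with 24 AL butterflies above the PT range. MCINXTMP_010702 ran from 57.5 through 128 to 274 CPM in AL and from 3.82 through 12.2 to 51.9 CPM in PT, and it was 1 of the 5 with no overlap. The paired numbers thus had similar means but unlike spreads, with SDs of 122 and 54.0 CPM in AL. Of 55 gene models at 5 CPM or more that directly neighboured a member without being one, 15 (27.3%) were over 2-fold higher in AL and 0 over 2-fold lower. Among the 4946 candidates off the list these shares were 12.7% and 2.14%.

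Sex was a contrast that the ranking did not use. It was tested within the 40 AL butterflies by edgeR's quasi-likelihood test over 8303 gene models, with the treatments as terms, and called at a Benjamini-Hochberg adjusted p under 0.05. Of the 100, 12 were called, against 11.3% of all tested. The 2 higher in males stand against 5.88% of all tested and the 10 higher in females against 5.42%. The total is near the background, so it is not a result about the list. DESeq2 called 16 of the 97 it gave an adjusted p and limma-voom 11, and each called 13.3% of all it tested. Of the 100, 85 averaged 5 CPM or more in both AL sexes, and 9 of these were called, against 16.8% of the 4392 candidates that did so. The other 3 called gene models were under 5 CPM in males and reached that floor through females, so a higher female level was favoured by the choice of the list. The median log2 difference, male over female, was -0.15 over the 100 and -0.09 over all tested.

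Among females, MCINXTMP_008940 had 0, 29.1 and 173 CPM as lowest, median and highest, and among males 0.144, 2.04 and 10.2 CPM. Of the 25 AL females 18 exceeded every AL male. The mean was 36.8 ± 39.3 CPM in females and 2.98 ± 3.20 CPM in males, so MCINXTMP_008940 is 1 of the 3 under the floor in males, and the difference is given as a description. In PT the female mean of 1.67 ± 1.57 CPM was likewise above the male mean of 0.805 ± 0.720 CPM. MCINXTMP_013993, 1 of the linked 12, had 0, 3.15 and 130 CPM in females and 0, 0 and 2.68 CPM in males. It too is 1 of the 3, with no male at 5 CPM, and 14 females exceeded every male although 8 females had no read.

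MCINXTMP_012777 was higher in males. Its values were 35.4, 93.3 and 222 CPM in AL females and 65.1, 167 and 244 CPM in AL males, which overlapped widely. The difference was 1.16 ± 0.20 (log2, SE; edgeR adjusted p = 5.84e-05), and in PT males also averaged more, 25.3 ± 25.0 against 13.6 ± 12.2 CPM. MCINXTMP_011845 had 9.48, 17.0 and 46.3 CPM in females and 7.33, 24.9 and 43.9 CPM in males, a smaller difference of 0.73 ± 0.20 (edgeR adjusted p = 0.0135). In AL females and males the CPM means were 96.3 and 160 for MCINXTMP_012777 and 20.05 and 23.4 for MCINXTMP_011845. Both pairs of means lay closer than the fitted differences, which were taken after TMM scaling and with treatment terms. The call of MCINXTMP_011845 was lost under 3 other settings and kept under 6. It was also lost without AL male control 1 h butterfly 1 (0.60, edgeR adjusted p = 0.0512). In PT its female mean of 1.70 ± 1.57 CPM was above the male mean of 0.970 ± 0.696 CPM. For all 10 gene models called higher in females in AL the PT female mean was the higher, and for 1 of the 2 called higher in males the PT male mean was. Those PT values, in CPM without the TMM scaling of the calls, were not tested. The same share was not counted over all gene models called in AL, so nothing is read from these counts.

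Among the uneven gene models, a large difference in means could miss the threshold. MCINXTMP_010010 averaged 232 ± 318 CPM in AL females (n = 25) and 22.2 ± 52.0 CPM in AL males (n = 15). Its difference of -3.03 ± 1.11 did not pass (edgeR adjusted p = 0.0724), with 9 females above every male. MCINXTMP_007711, at 376 ± 280 CPM in females and 83.8 ± 73.4 CPM in males, passed with a smaller difference of -1.55 ± 0.46 (edgeR adjusted p = 0.0216).

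Calls for flight were few, both on the list and among all gene models tested. At 1 h, 0 of the 100 were called by edgeR, against 0.157% of all tested. DESeq2 and limma-voom also called 0, against 0.78% and 0.47% of all they tested, and 4 of the 100 had an unadjusted edgeR p under 0.05, against 7.18% of all tested. At 20 h, 2 were called, both lower after flight, against 0.434% of all tested in either direction and 0.157% lower. An unadjusted edgeR p under 0.05 was held there by 16 of the 100, against 10.2% of all tested. Among the 75 with 5 CPM or more on average in both groups, 1 was called, against 0.641% of the 4526 such candidates. Between controls at 20 h and at 1 h, 0 were called (0.0% of all tested), again with 0 by DESeq2 (0.0395% of all it tested) and by limma-voom (0.0%), and 6 had an unadjusted edgeR p under 0.05, against 4.17% of all tested. The difference between the flight effects at 20 h and at 1 h called 0 (0.12% of all tested), with 0 by DESeq2 (0.257% of all it tested) and by limma-voom (0.0723%). Of the 100, 12 were at an unadjusted edgeR p under 0.05, against 7.24% of all tested. These comparisons share control and flown butterflies. Median log2 changes of the 100 were -0.10 at 1 h and -0.42 at 20 h, and 0.01 at both times over all tested.

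The calls at 20 h rest on little. MCINXTMP_004851 had 5.69, 15.8 and 37.5 CPM as lowest, median and highest in the 6 controls, and 1.21, 4.40 and 35.6 CPM in the 15 flown butterflies. The ranges overlapped, and the fitted change was -1.86 ± 0.43 (log2, SE; edgeR adjusted p = 0.0463). In PT the medians at 20 h were 0.161 CPM in 7 controls and 0.683 CPM in 15 flown butterflies, the other way round. MCINXTMP_013204 had 0, 1.52 and 320 CPM in controls and 0, 0.808 and 7.76 CPM in flown butterflies, with a fitted change of -6.07 ± 1.40 (edgeR adjusted p = 0.0463). Its flown butterflies averaged 1.41 ± 2.04 CPM, so at 20 h it reached the 5 CPM floor through controls alone. The highest control, AL female control 20 h butterfly 3, stood apart, since the next control had 3.73 CPM. Without it the change of MCINXTMP_013204 was -0.22 ± 1.39 (edgeR adjusted p = 0.985), so that butterfly decides the value. Leaving out each of the 40 butterflies in turn ended the call of MCINXTMP_013204 in 20 cases and that of MCINXTMP_004851 in 19 (adjusted p up to 0.115), and DESeq2 gave MCINXTMP_004851 an adjusted p of 0.0053.

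At 20 h after flight DESeq2 called 6 of the 96 members it gave an adjusted p, against 1.78% of all it tested, and 4 of them were higher after flight, against 1.27%. MCINXTMP_012360 and MCINXTMP_009396, 2 of those 4, missed the edgeR threshold and are named after their values were seen. Both are on the list through flown butterflies at 20 h: their log2 ratios of AL to PT were 4.22 and 5.37 in that set and 0.29 and -0.54 in controls at 20 h. A rise after flight was therefore favoured by the choice of the list, and it is given as a description, with no test. MCINXTMP_012360 had 0.575, 3.08 and 4.65 CPM in the AL controls at 20 h and 3.08, 17.6 and 1032.1 CPM in flown butterflies at 20 h. Of the 15 flown butterflies 13 were above every control. The means were 2.87 ± 1.65 CPM in controls and 115 ± 262 CPM in flown butterflies. MCINXTMP_009396 had 0.314, 1.91 and 6.89 CPM in controls and 2.42, 14.2 and 431 CPM in flown butterflies at 20 h, and 13 of 15 were again above every control. The means were 2.47 ± 2.47 and 73.8 ± 134 CPM, with SDs in flown butterflies above the means.

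The highest value of both came from AL male flight 20 h butterfly 2. Without that butterfly the fitted log2 change of MCINXTMP_012360 went from 4.47 ± 1.09 (SE) to 3.59 ± 0.81, and that of MCINXTMP_009396 from 4.17 ± 1.12 to 3.87 ± 1.04. At 1 h the same gene models were low, with medians of 2.19 and 0.395 CPM in controls and 4.10 and 1.79 CPM in flown AL butterflies. In PT at 20 h MCINXTMP_012360 had medians of 1.30 CPM in controls and 1.5 CPM in flown butterflies, and MCINXTMP_009396 had medians of 0.251 and 0. Whether the flight effect differed between the populations was not tested. The means of these gene models in AL, 46.1 ± 166 and 29.4 ± 87.4 CPM, were held to 85.9% and 84.6% by 5 butterflies, and 7 and 6 AL butterflies exceeded the PT range.

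**Figure D5:**
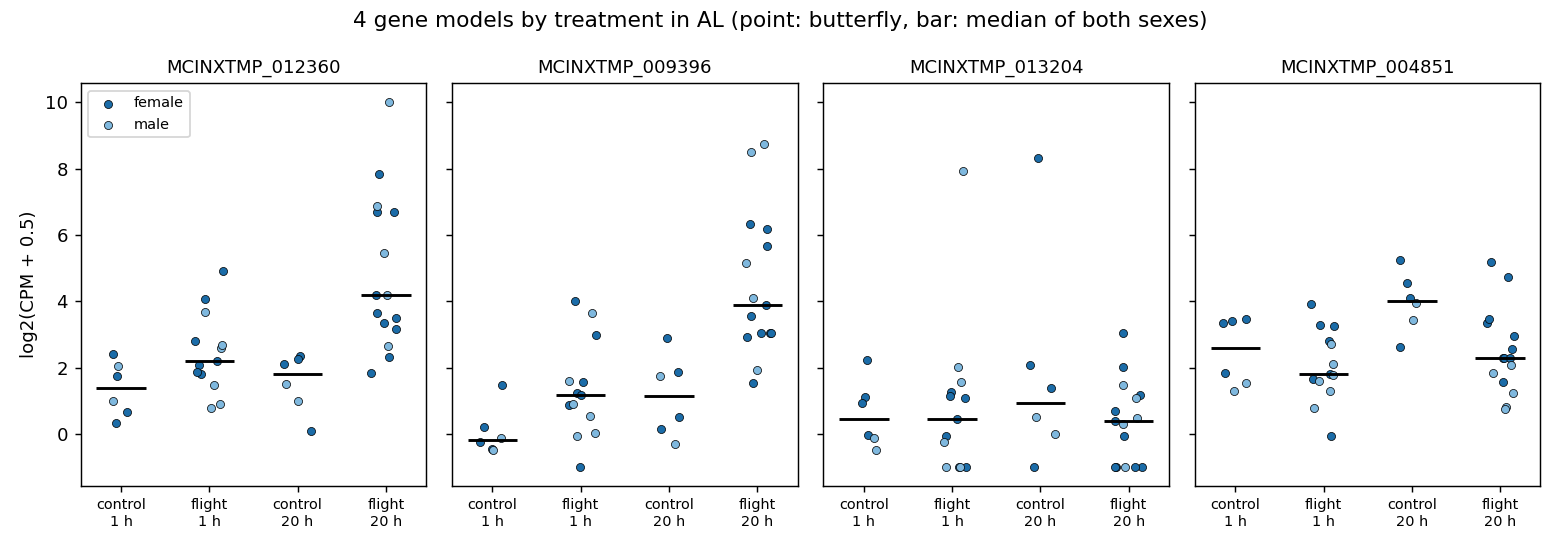
Panels show log2(CPM + 0.5) of 4 AL-high gene models (vertical axis) in AL butterflies by treatment, with 6 controls and 13 flown butterflies at 1 h and 6 controls and 15 flown butterflies at 20 h, dark points for females, light points for males and bars for medians. MCINXTMP_012360 and MCINXTMP_009396 have 13 of 15 flown butterflies above every control at 20 h, while the fall of MCINXTMP_013204 rests on 1 control at 320 CPM.

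MCINXTMP_014647 had medians of 11.2 CPM in controls and 44.0 CPM in flown AL butterflies at 1 h, and of 26.4 and 158 CPM at 20 h. Of the flown butterflies at 20 h, 6 were above the highest control, at 187 CPM, and the edgeR change of 1.27 ± 0.68 did not pass (edgeR adjusted p = 0.544). The sex difference in the flight effect, averaged over both times and tested by edgeR within AL, called 1 of the 100, against 0.253% of all tested. That was MCINXTMP_009575, at 3.64 ± 0.84 (log2, males over females, SE; edgeR adjusted p = 0.0413). Its 2 male controls at 1 h had 0.217 and 0.433 CPM and its 2 male controls at 20 h 1.86 and 2.36 CPM. Flown males had 2.05, 9.21 and 16.0 CPM at 1 h (lowest, median and highest of 6). At 20 h the 5 flown males had 5.18, 5.71, 6.04, 13.2 and 48.5 CPM. Female controls at 1 h had 1.21, 4.64, 8.80 and 17.8 CPM and overlapped the 7 flown females, at 4.24, 9.15 and 20.6 CPM. The male side thus rests on 4 controls, all under 5 CPM. The 48.5 CPM came almost wholly from 1 library, with 180 reads (75.5 CPM) at 450 nt and 16 reads (9.67 CPM) at 650 nt. MCINXTMP_009575 was also called for insert size, at -0.51 ± 0.16 (log2, 650 nt over 450 nt, SE; limma adjusted p = 0.0318).

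The libraries of each butterfly gave a technical check. The log2 difference in CPM between the 650 nt and the 450 nt library, tested by limma within AL butterflies, was called for 15 of the 100, against 10.7% of all tested. Higher with 650 nt were 3, against 6.56% of all tested, and higher with 450 nt were 12, against 4.14%. With all 85 butterflies 13 were called, against 20.5% of all tested. Of these 7 were higher with 650 nt, against 11.0%, and 6 with 450 nt, against 9.49%, so the lean towards 450 nt was not seen when PT was included. The 100 were chosen to be low in PT, where the prior count of 2 makes libraries with few reads look alike. That run therefore cannot decide whether the lean holds. MCINXTMP_002814 averaged 36.1 ± 28.1 CPM in the 450 nt and 17.4 ± 14.7 CPM in the 650 nt libraries (n = 40), and 7 of 40 butterflies were higher with 650 nt. Its difference was -0.82 ± 0.19 (limma adjusted p = 0.00245). MCINXTMP_007991, also 1 of the 5 without overlap, averaged 199 ± 111 and 116 ± 64.9 CPM, a difference of -0.67 ± 0.08 (limma adjusted p = 6.29e-09), with 2 of 40 higher with 650 nt. In the other direction, MCINXTMP_009087 differed by 0.82 ± 0.15 (limma adjusted p = 0.000127), with 32 of 40 higher with 650 nt. MCINXTMP_007739, at 108 ± 28.2 and 150 ± 56.5 CPM, differed by 0.53 ± 0.07 (limma adjusted p = 2.03e-07), with 37 of 40 higher with 650 nt. On the log2 scale these differences were smaller than the 2.60 or more between populations.

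How far the libraries ranked butterflies alike varied between gene models. The rho of CPM between 450 nt and 650 nt libraries over the 40 AL butterflies had a median of 0.788 over the 100 and of 0.588 over the 5046. It ran from 0.0169 to 0.962, and 11 of the 100 were under 0.5, among them MCINXTMP_013204 at 0.293 and MCINXTMP_015599 at 0.266. Also under 0.5 were MCINXTMP_012643 at 0.447, MCINXTMP_011220 at 0.487 and MCINXTMP_011845 at 0.354, all without overlap between the populations. The other gene models without overlap, MCINXTMP_010702 and MCINXTMP_007991, were at 0.861 and 0.839. Taken from 450 nt libraries alone the median log2 ratio of AL to PT was 3.50, and from 650 nt libraries alone 3.24. It was 3.42 in females and 3.18 in males, and between 3.21 and 3.36 in each of the 4 treatments. These splits use parts of the values that made the list, so they describe it and do not test it.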

How the data were processed

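Thorax RNA of 85 butterflies was sequenced in 170 libraries. Per the labels' protocols, library construction kept strand, relied on polyA anchoring and yielded a 450 nt and a 650 nt insert library from every individual. The submitters' processing notes name CASAVA 1.8, TopHat2 2.0.5 and edgeR, without saying what each did. The sources used here name no genome build, annotation or counter and do not say if strand was used, so reads shared by overlapping genes or near-identical copies may have been split or lost. What the authors deposited for each library is a raw count per gene model. A further deposited table gives normalized values for 8258 gene models, a signal of unnamed scale. All of its values (100%) equalled the summed counts times 1 factor per butterfly, within 0.001 plus 1e-05 of the value. It holds 97 of the 100 members and served as an alternative filter. No column of per-sample values was left unused.

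Counts of both libraries were summed per butterfly, and CPM was taken over all 16667 gene models. The butterfly is the replicate. Tests used edgeR 4.0.16 in R 4.3.3 (TMM scaling, robust quasi-likelihood F test) on the 40 AL butterflies, with means of the 4 treatments and sex as terms. They covered the 8303 gene models with a mean of at least 1 CPM in AL, which include all 100 members, adjusted by Benjamini-Hochberg and called under 0.05. SE is the absolute log2 change over the square root of F. For insert sizes, limma 3.58.1 was run on the difference in log2 CPM inside each butterfly (prior count 2). The alternatives were DESeq2 1.42.0, limma-voom with quality weights, other scalings, filters and samples, single insert sizes and leaving out butterflies. The scripts were tested on simulated data.

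The members and lists were chosen with earlier results of these data known. Identifiers cannot be paired with names, so at most 2 per pattern or direction are named: highest ratio, highest AL mean, largest gap between populations, most AL butterflies without a read, highest PT value, largest called rise and fall, best correlated pair, linked set and consecutive numbers. Gene lists and cell type markers were not analysed for the same reason.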

Additional observations from a re-analysis of the deposited data

Results flagged for a closer look

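Single butterflies that stood apart within a sex by treatment set of 4 to 10 were looked for in the sum of the 100 gene models, in the number detected and in the named gene models. Of 186 sets, 28 held such a butterfly, and chance flags about 1 in 20, or 9.3. Many sets hold zeros, where a single read can set a butterfly apart.

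For the sum, AL male flight 20 h butterfly 2 had 4792.2 CPM and PT male flight 1 h butterfly 3 had 253.8 CPM. For the number with a read, AL female control 1 h butterfly 2 had 98, AL female flight 1 h butterfly 5 had 84 and PT female flight 1 h butterfly 7 had 84.

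AL male flight 1 h butterfly 1 stood above the other males of its set in 4 of the linked 12, with log2(CPM + 0.5) of 7.67 for MCINXTMP_010010, 10.2 for MCINXTMP_006003, 5.87 for MCINXTMP_008630 and 1.67 for MCINXTMP_013993. On the same scale, AL female control 1 h butterfly 4 was low in MCINXTMP_007711 at 6.08 and in MCINXTMP_008940 at 2.36. For MCINXTMP_013993, AL female control 20 h butterfly 4 had -1.0, the value of 0 reads, and AL male flight 20 h butterfly 2 had 0.31. AL male flight 20 h butterfly 4 had 3.69 for MCINXTMP_008630.

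For MCINXTMP_001161 the values were 3.64 in AL female control 20 h butterfly 3, 7.35 in AL female flight 1 h butterfly 4, -0.054 in AL male flight 1 h butterfly 4 and 6.21 in AL male flight 20 h butterfly 4. AL male flight 1 h butterfly 3 had 4.99 for MCINXTMP_010142 and 2.28 for MCINXTMP_014647. MCINXTMP_013204 had 7.92 in AL male flight 1 h butterfly 6, the second butterfly with a high value of that gene model. MCINXTMP_010855 had 9.42 in AL female flight 20 h butterfly 4. MCINXTMP_015599 had 7.79 in AL female flight 20 h butterfly 10, -1.0 in AL female flight 1 h butterfly 5 and -0.31 in AL male flight 1 h butterfly 4. MCINXTMP_011845 had 5.30 in AL female flight 20 h butterfly 7, MCINXTMP_004851 had 1.84 in AL female control 1 h butterfly 2, and MCINXTMP_012360 had 0.10 in AL female control 20 h butterfly 1.

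A tested difference between the sexes in the flight effect was found for MCINXTMP_009575, at 3.64 in log2, males over females (edgeR adjusted p = 0.0413). The 4 male controls were all under 5 CPM, and the highest flown male had 180 reads in 1 library and 16 in the other. This contrast was fitted in 1 setting, with no butterfly left out. Of the 100, 13 had an unadjusted p under 0.05 in that comparison, against 11.5% of all tested.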

How the results depend on the processing

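No paired analysis was possible because the butterflies are different individuals and replicate numbers only name them. At 20 h after flight the 2 calls became 0 with 450 nt libraries only, 1 with 650 nt libraries only, 6 with DESeq2 (4 higher, 2 lower), 0 in females only and 0 with no filter, and 0 to 3 without single butterflies. These count other gene models as well as those named, and the cause was not tested beyond the fewer butterflies or reads that some settings use. The difference of flight effects went from 0 calls to 1 with 450 nt libraries only and to 2 with all 85 butterflies. Calls by sex ran from 9 to 16 across settings and from 9 to 14 without single butterflies. Calls by insert size ran from 11 to 15, and from 11 to 17 in the 17 runs made without single butterflies, those of AL sets of 2 to 5. Of the 100 members, 47 remained with a floor of 20 CPM in AL, which fewer gene models pass, and 63 with medians in place of means. Under the other 10 settings of the ranking 75 to 94 remained, and 96 to 100 without single butterflies. For the gene models named for a call by sex, by flight at 20 h or by insert size, that fitted difference did not change direction under the settings run. Other fitted differences in the text were not followed in this way. With medians the log2 ratio of MCINXTMP_010855 went from 3.53 to -0.10. Depth limits both populations: a gene model without a read may still be present at up to 1.65 CPM in an AL and 1.38 CPM in a PT butterfly.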

Other observations

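AL male flight 20 h butterfly 2 was the highest of all AL butterflies for 8 of the 100 gene models, and its sum of the 100 was the highest among males although its sum of the linked 12, at 6.19 CPM, was the lowest of all 40 AL butterflies. In MCINXTMP_012360 it had 4171 reads, 2692 in the 450 nt and 1479 in the 650 nt library. AL female flight 1 h butterfly 6, which led 9 gene models, had 2202.6 CPM of the linked 12.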
